A study of Canis lupus familiaris with 15 samples.

Results

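Glycolysis and hypoxia response genes were followed across canine osteosarcoma cell lines before and after extravasation. The members were 51 named genes, taken wherever the gene symbol in a deposited table of differentially expressed genes equalled a listed name. Of the 51 members, 35 appeared in at least 1 of 3 tables, which together list 7699 distinct gene symbols. The members fall into 6 roles, namely glycolytic enzymes, regulators of glycolytic flux, subunits and hydroxylases of the hypoxia-inducible factor, secreted and membrane genes of the hypoxia response, intracellular genes of the hypoxia response, and genes of the pentose phosphate pathway and glycogen.

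The RNA came from 15 libraries in 5 groups of 3, and the question was how tumor cells that had left a blood vessel differ from the cells they came from. D17 extravasation-positive and HMPOS extravasation-positive are sublines grown out from tumor cell clusters that had crossed the vessel wall of transgenic zebrafish embryos with fluorescent vessels. D17 parental and HMPOS parental are the original lines, and POS parental is the less metastatic canine line from which HMPOS was derived. No treatment is named for any group, and the sublines were expanded in culture before RNA extraction, so the values describe cultured cells and not cells inside the fish. Only the sublines had been injected into embryos, dissected out, put through a bleaching solution and enzymatic dissociation, and regrown. The parental cells were never in the fish, and no group was exposed to the fish without extravasating. Extravasation therefore cannot be told apart from passage through the fish, isolation and regrowth. The oxygen level of the cultures is not given in the sources used here.

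Each table gives 1 FPKM value per group (fragments scaled to transcript length and to the number of mapped fragments), which pools the 3 libraries. These values carry no SD or interval, no test over libraries was run on them, and the depth is unknown. A gene is listed only if it passed the authors' test, so an absent gene may have missed the threshold, may not have been tested, or may carry no symbol. Ratios are given as extravasation-positive over parental, or HMPOS parental over POS parental, and a fold above 2 was the threshold for counting. The column named norm was read as parental, because POS, which has parental libraries alone, carries that name. If the names had been exchanged, every direction given for D17 and for HMPOS extravasation-positive cells would turn round, and the HMPOS values set against POS would be those of extravasation-positive cells. Higher and lower would then trade places for members and for all listed genes alike, and a rank from the highest ratio would become a rank from the lowest. In D17, 30.0% of the listed members would be higher beside 45.8% of all listed genes, and the 7 members past a fold of 2 would be lower. In HMPOS, 41.7% would be higher beside 33.0%, and the 1 member past a fold of 2 would be lower. The deposited log2 ratio is second group over first, which is parental over extravasation-positive under this reading of the names. Its sign is thus the reverse of that of the ratios given here, with no exchange of names. The column names and the study's own account of direction do not point the same way. Whether the sign of the deposited ratio accounts for this was not tested, and the sources used here do not settle which holds.

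The osteoblast lineage was represented among the listed genes of every table. In D17, 5 of 10 osteoblast lineage markers were listed and 4 were higher in extravasation-positive cells, with a summed level of 2219 FPKM against 915.0 FPKM in parental cells. The most abundant was COL1A2, at 1360 and 493.4 FPKM. In HMPOS, 5 of 10 were listed and 4 were higher, with sums of 3125 and 1923 FPKM and SPARC most abundant at 2897 and 1777 FPKM. In HMPOS parental against POS parental cells, 6 of 10 were listed and 1 was higher, with sums of 1995 and 5468 FPKM, and the most abundant, SPARC, stood at 1775 and 4439 FPKM. RUNX2, a defining transcription factor of the lineage, was listed in none of the tables, which says nothing of its level. The osteoblast markers thus moved in the same comparisons as the members, and their part in the results below was not tested.

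Of markers of other cell types, none of 7 leukocyte markers and none of 4 muscle markers was listed in any table. Of 7 endothelial markers, KDR alone was listed, at 0.146 FPKM in HMPOS parental and 1.73 FPKM in POS parental cells. Of 5 epithelial markers, EPCAM and CDH1 were listed in D17, with a summed level of 3.19 FPKM in extravasation-positive and 0.510 FPKM in parental cells. CDH1 was the only epithelial marker listed in the remaining tables, at 3.04 against 1.49 FPKM in HMPOS and at 1.49 FPKM in HMPOS parental against 4.30 FPKM in POS parental cells. These levels were low beside the summed levels of the osteoblast markers, and their part in the results was not tested.

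Glycolysis splits glucose into pyruvate and yields ATP without oxygen, and lactate dehydrogenase then turns pyruvate into lactate. When oxygen is low, prolyl hydroxylases no longer mark the alpha subunits of the hypoxia-inducible factor for destruction, and the stabilised factor switches on most glycolytic genes together with genes for pH control, blood vessel growth and mitochondrial turnover. Osteosarcomas, like many solid tumors, often hold poorly perfused regions and use glucose heavily even where oxygen is present.

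In D17, members stood higher in extravasation-positive cells more often than lower. The table listed 20 of the 51 members, of which 14 were higher and 6 lower, that is 70.0% higher, where 54.2% of all 4412 listed genes were higher and 45.8% lower. At a fold above 2, 7 members were higher and 0 lower, or 35.0% of the listed members, beside 18.3% of all listed genes higher and 8.50% lower. The median log2 ratio was 0.76 over the listed members, from -0.58 to 3.68, and 0.39 over all listed genes. Relative to the latter the members' median was 0.37, with 5 members higher and 0 lower at a fold above 2. With the same centring at least 451 of the 4412 listed genes were higher and at least 762 lower at that fold. These are the ranks of PPP1R3B from the highest and SLC2A1 from the lowest, with centred log2 ratios of 1.04 and -1.10. In such bulk samples a smaller share of cells with a transcript and less of the transcript per cell cannot be told apart.

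The HMPOS table listed 12 members, 7 with a higher and 5 with a lower value in extravasation-positive cells. That is 58.3% higher, beside 67.0% higher and 33.0% lower among all 1189 listed genes. At a fold above 2, 1 member was higher and 0 were lower, which is 8.33% of the listed members, beside 20.5% of all listed genes higher and 4.79% lower. The median log2 ratio of the listed members was 0.45, from -0.88 to 1.82, and that of all listed genes was 0.58. Relative to the latter the members' median was -0.13, with 1 member higher and 5 lower at a fold above 2, so the direction of the HMPOS median turned round with the centring. With the same centring at least 257 of the 1189 listed genes were lower at that fold. This is the rank from the lowest of ERO1A, which had a centred log2 ratio of -1.07.

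The table of HMPOS parental against POS parental cells listed 27 members, 19 higher and 8 lower in HMPOS. This is 70.4% higher, while among all 5746 listed genes 47.7% were higher and 52.3% lower. At a fold above 2, 6 members (22.2%) were higher and 3 (11.1%) lower, beside 8.49% and 19.1% of all listed genes. The median log2 ratio was 0.46 over the members, from -2.94 to 2.20, and -0.31 over all listed genes. Relative to the median of all listed genes, 12 members were higher and 2 lower at a fold above 2, and the members' median was 0.77. With the same centring at least 892 of the 5746 listed genes were higher and at least 743 lower at that fold. These are the ranks of PGAM1 from the highest and SPARC from the lowest, with centred log2 ratios of 1.05 and -1.02.

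**Figure D1:**
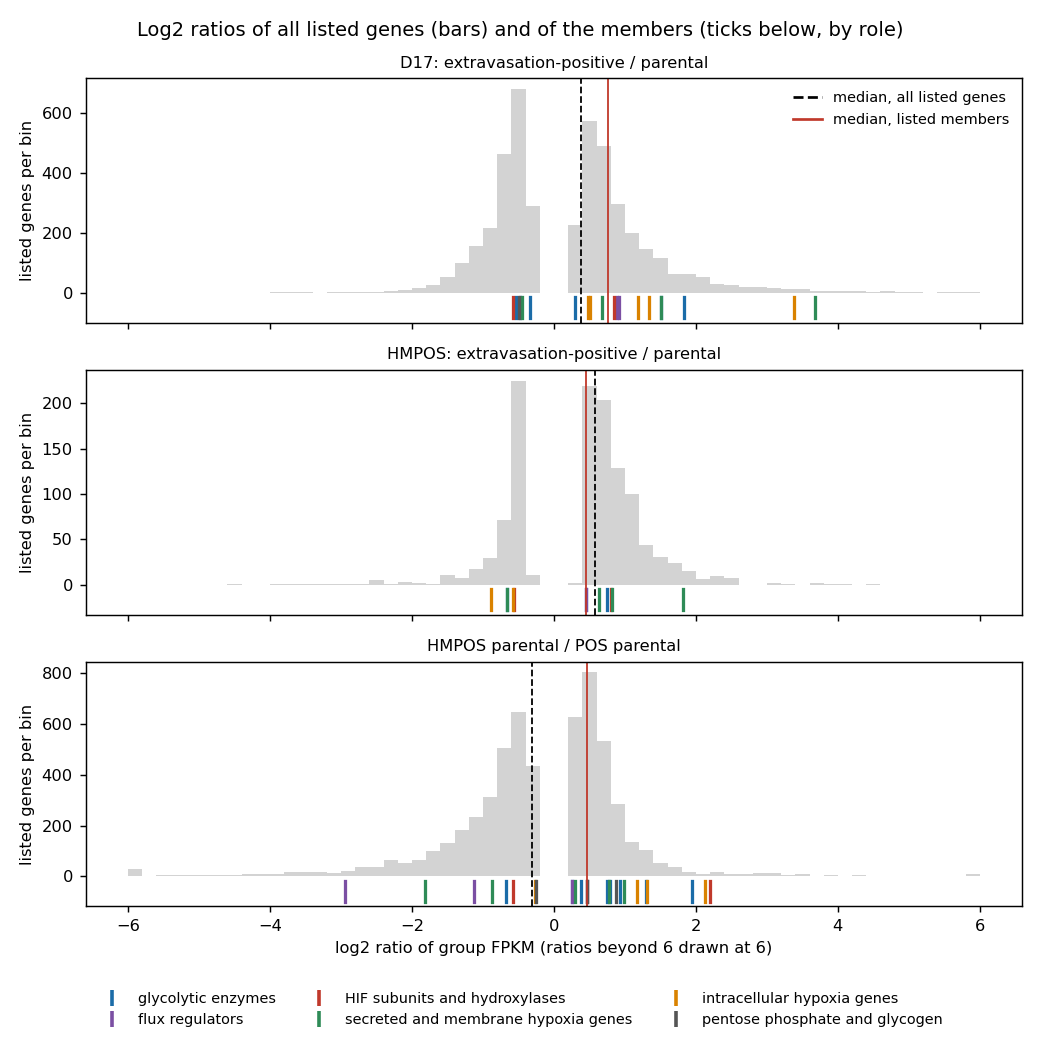
Histogram of the log2 ratio of all genes listed in each of the 3 tables, with the listed members as ticks coloured by role, the median of all listed genes as a dashed black line and that of the members as a red line, and ratios beyond 6 drawn at 6. The members' median lies above that of all listed genes in D17 (0.76 and 0.39) and in HMPOS parental against POS parental (0.46 and -0.31), and below it in HMPOS (0.45 and 0.58).

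The distribution of all listed genes has a gap around a ratio of 1, since unchanged genes are not listed, so its median is no neutral point and is given only for comparison. Of the 35 listed members, 16 were listed in 1 table, 14 in 2 tables and 5 in all 3. The 5 members in all 3 tables were ALDOC, ADM, ANGPTL4, CA9 and DDIT4. The 16 members listed nowhere were HK1, GPI, ALDOA, PKM, LDHA, PFKFB2, PFKFB4, PDK1, HIF3A, STC1, CA12, BNIP3L, INSIG2, TALDO1, PGM1 and GYS1. They include the enzymes most often named in tumor glycolysis, LDHA and PKM, whose levels are therefore not known here.

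**Figure D2:**
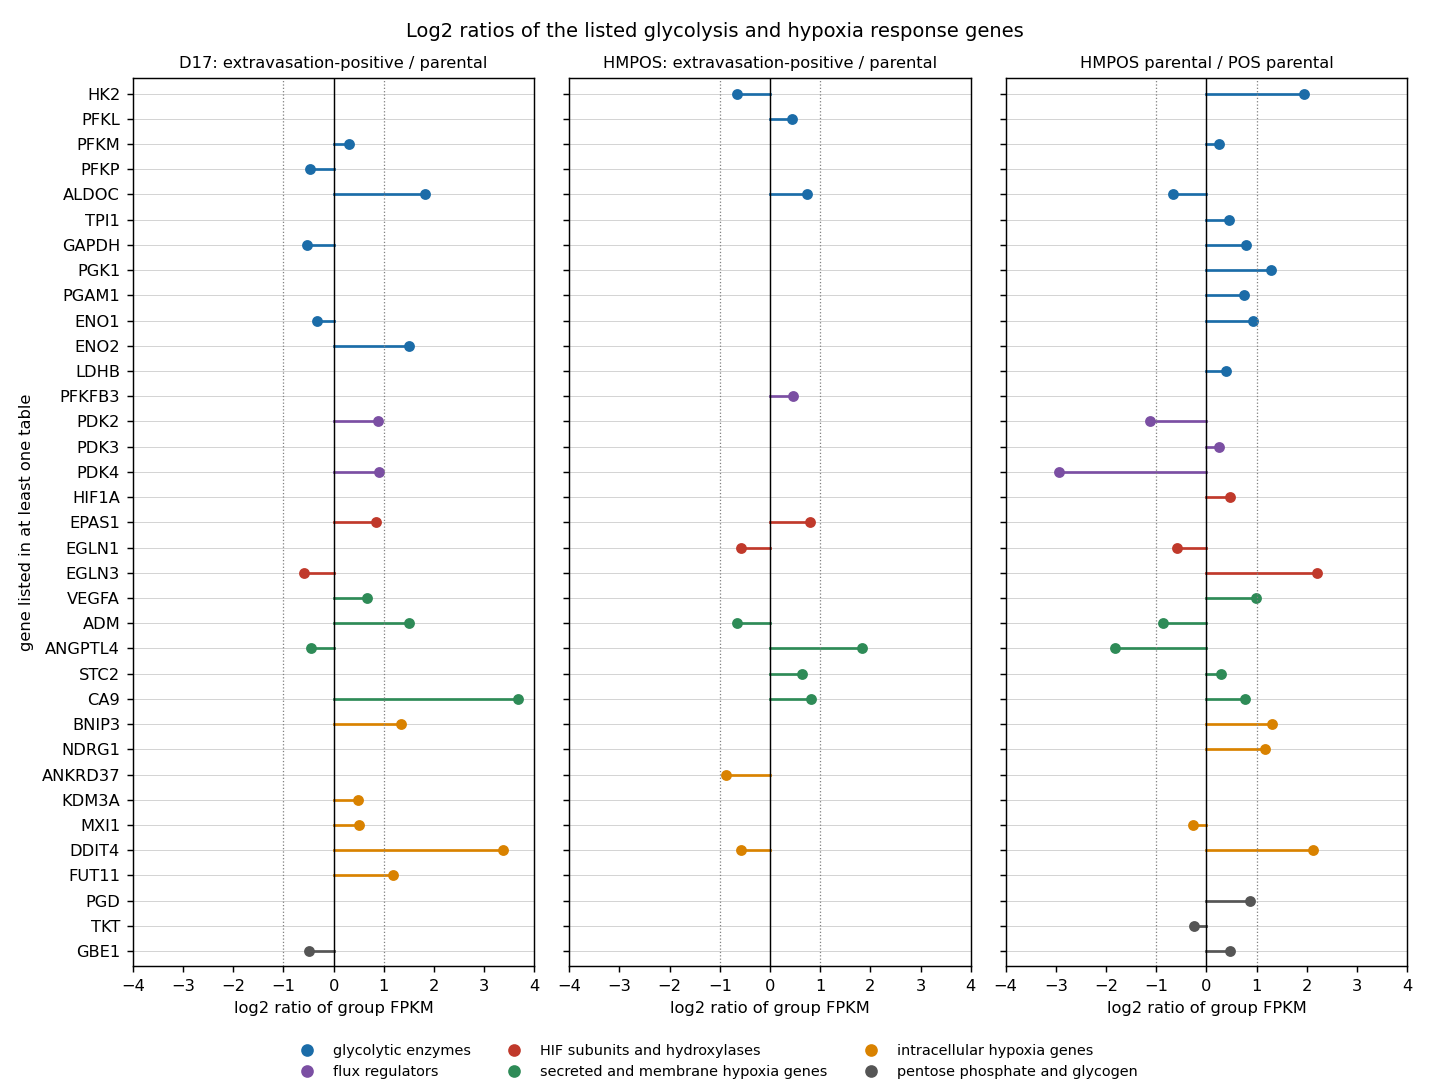
Log2 ratio of each listed member in D17, in HMPOS and in HMPOS parental against POS parental cells, coloured by role, with dotted lines at a fold of 2 in either direction. In D17 the ratios run from -0.58 to 3.68 and in HMPOS from -0.88 to 1.82, and members lower at a fold above 2 occur only in HMPOS parental against POS parental cells, where 3 do.

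Among the 17 glycolytic enzymes, D17 had 3 listed as higher and 3 as lower in extravasation-positive cells, beside 54.2% and 45.8% of all listed genes. At a fold above 2, 2 enzymes were higher, beside 18.3% of all listed genes. GAPDH, which oxidises glyceraldehyde phosphate, stood at 7061 FPKM in D17 extravasation-positive and 10194 FPKM in D17 parental cells, a log2 ratio of -0.53. In parental cells this was the highest level of any gene the table lists, and in extravasation-positive cells GAPDH ranked 4. ENO1, the widely expressed enolase that makes phosphoenolpyruvate, stood at 530.5 and 669.8 FPKM, a log2 ratio of -0.34. Both abundant enzymes were thus lower in extravasation-positive cells, by a fold of 1.44 and 1.26. The level of genes with close processed copies in the genome, as GAPDH, ENO1, PGK1, PGAM1, TPI1 and LDHB have, is uncertain, since counting could split their reads.

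ALDOC, the brain-type aldolase that cleaves fructose bisphosphate, stood at 72.8 FPKM in D17 extravasation-positive and 20.5 FPKM in D17 parental cells, a fold of 3.55 and log2 ratio of 1.83. ALDOC (ENSCAFG00000018719, chr9:42778080-42782604 in the CanFam3.1 build that the submitters' notes name) ranked 278 from the highest ratio in the table. ENO2, the enolase typical of neurons (ENSCAFG00000014523, chr27:38116697-38127850), stood at 17.4 and 6.13 FPKM, a fold of 2.84. ALDOC and ENO2 were higher by more than the abundant enzymes were lower on the log2 scale. ENO2 made up 3.17% of the summed ENO1 and ENO2 level in extravasation-positive and 0.906% in parental cells, so that the level of ENO1 exceeded that of ENO2 by 30.5 and 109.3 times.

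Phosphofructokinase, the committed step of glycolysis, is made from muscle, liver and platelet subunits. In D17 the platelet subunit PFKP stood at 83.2 FPKM in extravasation-positive and 115.4 FPKM in parental cells, and the muscle subunit PFKM at 63.3 and 51.4 FPKM. PFKM made up 43.2% of the summed level of these subunits in extravasation-positive and 30.8% in parental cells. The log2 ratios were -0.47 for PFKP and 0.30 for PFKM, and that of PFKM became -0.085 relative to the median of all listed genes. Summed over the 6 listed enzymes, the level was 7828 FPKM in extravasation-positive and 11057 FPKM in parental cells, a sum that GAPDH dominates.

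In HMPOS only 3 of the 17 enzymes were listed, none at a fold above 2. At that fold 20.5% of all listed genes were higher and 4.79% lower. ALDOC stood at 190.2 FPKM in HMPOS extravasation-positive and 113.4 FPKM in HMPOS parental cells, a log2 ratio of 0.75. HK2, the inducible hexokinase that traps glucose in the cell, stood at 17.4 and 27.6 FPKM, a log2 ratio of -0.67. The liver subunit of phosphofructokinase, PFKL, stood at 59.2 and 43.5 FPKM, and its log2 ratio of 0.45 became -0.14 relative to the median of all listed genes. ALDOC was thus the 1 glycolytic enzyme listed in both lines, higher in extravasation-positive cells of each.

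**Figure D3:**
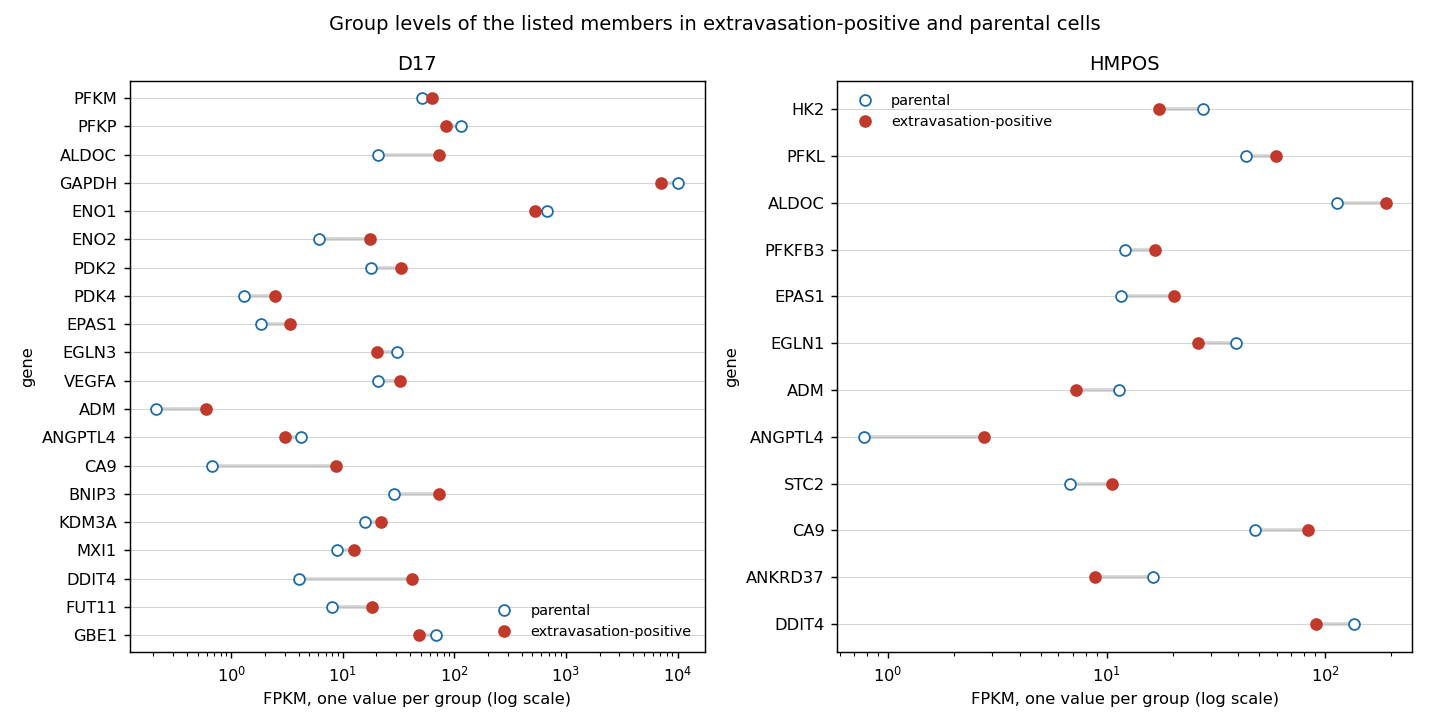
FPKM on a log axis of each listed member in D17 and in HMPOS, with extravasation-positive cells as filled red points and parental cells as open blue points joined by a line. In D17 the levels span from 0.210 FPKM (ADM, parental) to 10194 FPKM (GAPDH, parental), and in HMPOS from 0.772 FPKM (ANGPTL4, parental) to 190.2 FPKM (ALDOC, extravasation-positive).

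Between HMPOS parental and POS parental cells, 9 of the 17 enzymes were listed and 8 were not. Of the 9, 8 were higher in HMPOS parental cells, 2 of them at a fold above 2, where 47.7% of all listed genes were higher and 8.49% higher at a fold above 2. The lower, energy-yielding stretch had 5 listed genes, the first being GAPDH at 3264 FPKM in HMPOS parental and 1893 FPKM in POS parental cells, a fold of 1.72. PGK1, which makes the first ATP of this stretch, stood at 810.0 and 331.3 FPKM, a fold of 2.44 and log2 ratio of 1.29. PGAM1, the mutase that follows, stood at 587.0 and 349.7 FPKM.

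ENO1 came next in the pathway, at 1673 FPKM in HMPOS parental and 877.9 FPKM in POS parental cells, a fold of 1.91. LDHB, the lactate dehydrogenase subunit that favours lactate oxidation, stood at 404.3 and 310.0 FPKM, a fold of 1.30. TPI1, which interconverts the triose phosphates upstream of GAPDH, stood at 458.7 and 333.8 FPKM, a fold of 1.37. From TPI1 to LDHB every listed enzyme was higher in HMPOS parental cells, while PKM and LDHA were not listed.

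At the entry to the pathway, HK2 (ENSCAFG00000008265, chr17:48287079-48329544) stood at 27.5 FPKM in HMPOS parental and 7.16 FPKM in POS parental cells. Its fold of 3.85 was the largest of any glycolytic enzyme in any of the tables, with a log2 ratio of 1.94. PFKM stood at 60.5 and 50.6 FPKM, a log2 ratio of 0.26. The exception among the listed enzymes was ALDOC, at 113.3 FPKM in HMPOS parental and 180.8 FPKM in POS parental cells, a log2 ratio of -0.67. Summed over the 9 enzymes, the level was 7397.5 FPKM in HMPOS parental and 4334 FPKM in POS parental cells.

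**Figure D4:**
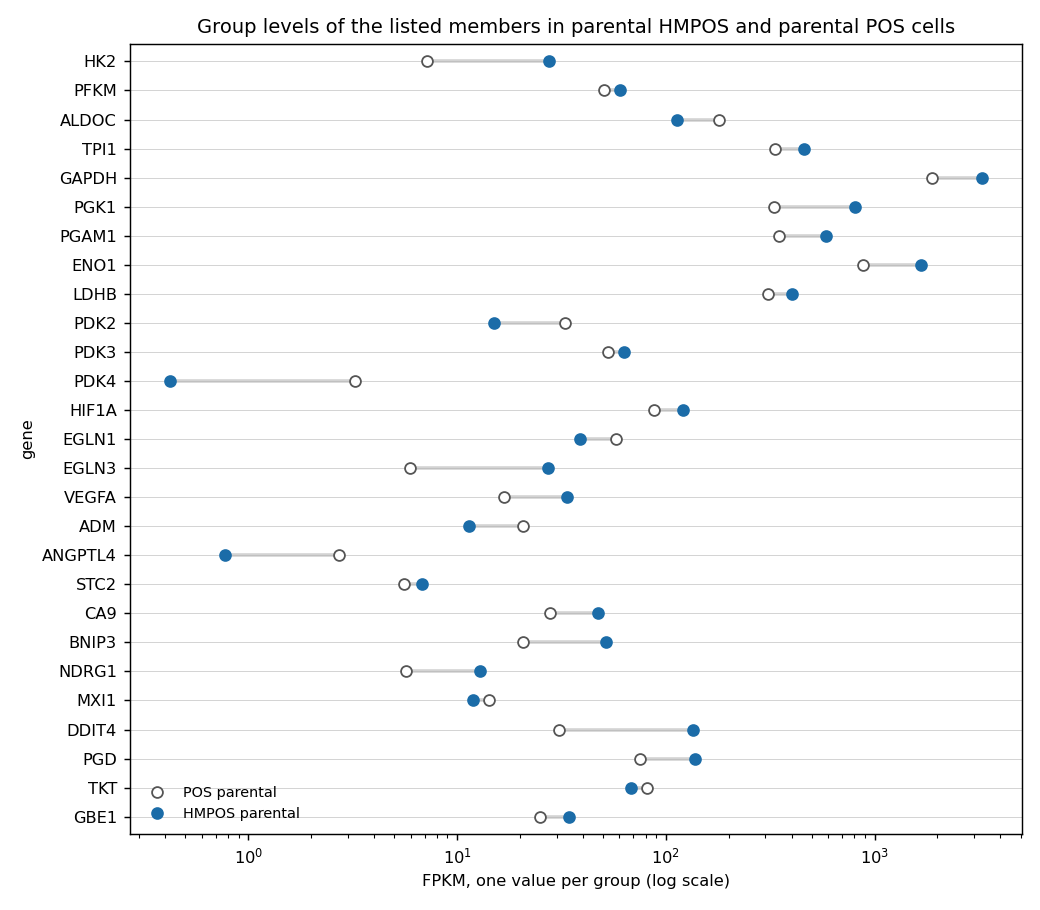
FPKM on a log axis of each member listed in HMPOS parental against POS parental cells, with HMPOS parental cells as filled blue points and POS parental cells as open grey points joined by a line. Of 9 glycolytic enzymes 8 lie higher in HMPOS parental cells, with HK2 the widest apart at 27.5 and 7.16 FPKM.

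Of the 7 regulators of flux, 2 were listed in D17, 1 in HMPOS and 3 in HMPOS parental against POS parental cells. The pyruvate dehydrogenase kinases switch off the complex that passes pyruvate to the mitochondrial citrate cycle. In D17, PDK2 stood at 33.1 FPKM in extravasation-positive and 17.9 FPKM in parental cells, a fold of 1.85. PDK4, the kinase induced by fasting and fatty acids, stood at 2.45 and 1.30 FPKM in D17, a fold of 1.88, which made it the member just short of the threshold there. Both kinases were higher in D17 extravasation-positive cells, with log2 ratios of 0.89 and 0.91.

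The same kinases were lower in HMPOS parental than in POS parental cells. PDK4 (ENSCAFG00000002129, chr14:20825695-20839030) stood at 0.423 FPKM in HMPOS parental and 3.25 FPKM in POS parental cells, a fold of 7.68. Its log2 ratio of -2.94 was the lowest of any member in any table, ranking 179 from the lowest in this one. PDK2 stood at 15.0 and 32.8 FPKM, a log2 ratio of -1.13 that became -0.83 relative to the median of all listed genes and so lost the fold of 2, whereas PDK3 stood at 62.9 and 52.7 FPKM and was the most abundant of the listed kinases in both groups. PDK4 was below 1 FPKM in HMPOS parental cells, a level at which a ratio of pooled values is least certain, and with a pseudocount of 1 its log2 ratio was -1.58.

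PFKFB3 makes a fructose bisphosphate, distinct from the one that aldolase cleaves, which activates phosphofructokinase. In HMPOS it stood at 16.7 FPKM in extravasation-positive and 12.2 FPKM in parental cells, and its log2 ratio of 0.46 became -0.13 relative to the median of all listed genes. It was listed in no other table.

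Of the 5 subunits and hydroxylases of the hypoxia-inducible factor, EPAS1 was listed in both lines. EPAS1, which encodes the alpha subunit HIF-2α, stood at 3.34 FPKM in D17 extravasation-positive and 1.86 FPKM in D17 parental cells. In HMPOS its levels were higher in both groups, at 20.4 FPKM in extravasation-positive and 11.6 FPKM in parental cells, the tables having been scaled separately. The log2 ratios, 0.84 in D17 and 0.81 in HMPOS, differed by 0.04. HIF1A, the other main alpha subunit, was listed only in HMPOS parental against POS parental cells, at 121.5 and 88.1 FPKM. Protein stability, through which oxygen chiefly acts on both subunits, was not measured.

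The hydroxylases EGLN1 and EGLN3 tag the alpha subunits for destruction, and both are themselves known targets of the factor. In D17, EGLN3 stood at 20.4 FPKM in extravasation-positive and 30.6 FPKM in parental cells, with -0.58 as the log2 ratio. In HMPOS, EGLN1 stood at 26.2 FPKM in extravasation-positive and 38.8 FPKM in parental cells, with -0.57 as the log2 ratio. A different hydroxylase was thus listed in each line, and each was lower in extravasation-positive cells.

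These hydroxylases went in opposite directions between HMPOS parental and POS parental cells. EGLN3 (ENSCAFG00000013182, chr8:12875434-12901737) stood at 27.4 FPKM in HMPOS parental and 5.95 FPKM in POS parental cells, a fold of 4.61. Its log2 ratio of 2.20 ranked 128 from the highest in the table. EGLN1 stood at 38.8 and 58.0 FPKM, a log2 ratio of -0.58.

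Of the 7 secreted and membrane genes of the hypoxia response, CA9 was listed in every table. CA9 encodes a carbonic anhydrase on the cell surface that hydrates CO2 and so helps cells export acid. In D17 it stood at 8.65 FPKM in extravasation-positive and 0.674 FPKM in parental cells, a fold of 12.8 and a log2 ratio of 3.68. The gene (ENSCAFG00000002077, chr11:52205667-52211267) ranked 38 from the highest ratio among the genes of the D17 table. Its level in parental cells was below 1 FPKM, and with a pseudocount of 1 the log2 ratio was 2.53. In HMPOS it stood at 83.5 FPKM in extravasation-positive and 47.5 FPKM in parental cells, with 0.81 as the log2 ratio. CA9 was also higher in HMPOS parental than in POS parental cells, at 47.5 and 27.9 FPKM, so that in each of the 3 tables the first group was the higher.

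ANGPTL4, a secreted inhibitor of lipoprotein lipase, was the 1 member past a fold of 2 in HMPOS. It stood at 2.73 FPKM in HMPOS extravasation-positive and 0.772 FPKM in HMPOS parental cells, a fold of 3.54 and log2 ratio of 1.82. The gene (ENSCAFG00000018506, chr20:52942075-52949053) ranked 44 from the highest ratio in the HMPOS table. With a pseudocount of 1 the log2 ratio was 1.07, since the parental level was below 1 FPKM. In D17 the direction was the opposite, at 3.04 FPKM in extravasation-positive and 4.17 FPKM in parental cells, with -0.46 as the log2 ratio. It stood at 0.771 FPKM in HMPOS parental and 2.73 FPKM in POS parental cells, a log2 ratio of -1.82 that became -1.07 with a pseudocount of 1.

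ADM encodes adrenomedullin, a peptide that widens blood vessels. In D17 it stood at 0.596 FPKM in extravasation-positive and 0.210 FPKM in parental cells, a fold of 2.85. It was the 1 listed member below 1 FPKM in both groups of a table, so its ratio rests on very little signal. With a pseudocount of 1 its log2 ratio was 0.40 and no longer past a fold of 2, and a minimum of 1 FPKM in the higher group would leave it out. In HMPOS, where ADM was more abundant, it stood at 7.21 FPKM in extravasation-positive and 11.4 FPKM in parental cells, with -0.66 as the log2 ratio. POS parental cells had the highest level, 20.7 FPKM beside 11.4 FPKM in HMPOS parental cells.

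VEGFA, the main growth factor of blood vessels, stood at 32.6 FPKM in D17 extravasation-positive and 20.5 FPKM in D17 parental cells, a fold of 1.59. In HMPOS parental against POS parental cells it stood at 33.6 and 16.9 FPKM, a fold of 1.99, just short of the threshold. STC2, a secreted stanniocalcin that responds to cellular stress, stood at 10.6 FPKM in HMPOS extravasation-positive, 6.81 FPKM in HMPOS parental and 5.55 FPKM in POS parental cells. Neither gene was lower in the first group of any table that listed it.

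Of the 9 intracellular genes of the hypoxia response, 5 were listed and all 5 were higher in D17 extravasation-positive cells, 3 of them at a fold above 2, beside 54.2% and 18.3% of all listed genes. DDIT4, which restrains the growth kinase mTORC1 under stress, stood at 41.8 FPKM in extravasation-positive and 4.03 FPKM in parental cells, a fold of 10.4 and log2 ratio of 3.37. The gene (ENSCAFG00000032469, chr4:22917000-22919498) ranked 55 from the highest ratio. BNIP3, a mitochondrial receptor for mitophagy, stood at 73.0 and 28.8 FPKM in D17, a fold of 2.53.

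FUT11, a fucosyltransferase of the secretory pathway, stood at 18.2 FPKM in D17 extravasation-positive and 7.96 FPKM in D17 parental cells, a fold of 2.28 that put it just past the threshold. The histone demethylase KDM3A, at 22.1 and 15.8 FPKM, and MXI1, an antagonist of MYC, at 12.5 and 8.78 FPKM, were higher by less. Relative to the median of all listed genes the log2 ratios of BNIP3 and FUT11 were 0.96 and 0.80, short of the threshold, which left DDIT4 as the 1 gene of this role past it. Summed over the 5 listed genes, the level was 167.7 FPKM in extravasation-positive and 65.5 FPKM in parental cells.

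In HMPOS, 2 of the 9 genes were listed, both lower in extravasation-positive cells and neither past a fold of 2. Of all listed genes, 33.0% were lower and 4.79% were lower at a fold above 2. DDIT4 stood at 90.8 FPKM in HMPOS extravasation-positive and 134.8 FPKM in HMPOS parental cells, a log2 ratio of -0.57. ANKRD37, a small ankyrin repeat protein induced by the factor, stood at 8.82 and 16.3 FPKM, and its log2 ratio of -0.88 was the lowest of any member in HMPOS.

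In HMPOS parental against POS parental cells, 4 of the 9 genes were listed and 3 were higher at a fold above 2. Of all listed genes, 47.7% were higher and 8.49% were higher at that fold. DDIT4 stood at 134.7 FPKM in HMPOS parental and 30.8 FPKM in POS parental cells, a fold of 4.37. BNIP3 stood at 51.5 and 20.7 FPKM, a fold of 2.48, and NDRG1, a stress-responsive cytoplasmic protein, at 12.9 and 5.72 FPKM, a fold of 2.25. MXI1 stood at 11.9 and 14.3 FPKM, and its log2 ratio of -0.27 became 0.040 relative to the median of all listed genes. The summed level of the 4 genes was 211.0 FPKM in HMPOS parental and 71.6 FPKM in POS parental cells.

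Of the 6 genes of the pentose phosphate pathway and glycogen, 1 was listed in D17, 0 in HMPOS and 3 in HMPOS parental against POS parental cells. None was past a fold of 2. GBE1, the glycogen branching enzyme, stood at 48.4 FPKM in D17 extravasation-positive and 68.1 FPKM in D17 parental cells, a log2 ratio of -0.49. It stood at 34.5 FPKM in HMPOS parental and 25.0 FPKM in POS parental cells, a log2 ratio of 0.46. PGD, the phosphogluconate dehydrogenase that yields NADPH, stood at 138.4 and 75.4 FPKM in the latter pair, a fold of 1.83. TKT, the transketolase of the non-oxidative branch, stood at 68.4 and 81.2 FPKM, and its log2 ratio of -0.25 became 0.058 relative to the median of all listed genes.

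Between the lines, 6 members were listed in both D17 and HMPOS, which is 30.0% of the 20 listed in D17 and 50.0% of the 12 listed in HMPOS. ALDOC, EPAS1 and CA9 were higher in extravasation-positive cells of both lines, 0 members were lower in both, and ADM, ANGPTL4 and DDIT4 went in opposite directions. The same counts were not made over all genes listed in both lines, so these numbers cannot be called particular to the members. The difference between the lines in log2 ratio was 1.08 for ALDOC and 2.87 for CA9, larger in D17 for each. With a pseudocount of 1 the CA9 log2 ratios were closer, at 2.53 in D17 and 0.80 in HMPOS. DDIT4, at 4.03 FPKM in D17 parental and 134.8 FPKM in HMPOS parental cells, started from very different levels, as did CA9 at 0.674 and 47.5 FPKM, with the tables scaled separately. Whether the lines differ in these ratios was not tested.

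HMPOS parental cells are the second group of the HMPOS table and the first group of the table against POS, so these comparisons share their libraries and are not independent. For the 8 members listed in both, the parental values of the tables differed by at most 0.107%, while extravasation-positive and parental values differed by at least 32.5%. HK2 stood at 7.16 FPKM in POS parental, 27.5 FPKM in HMPOS parental and 17.4 FPKM in HMPOS extravasation-positive cells. DDIT4 followed the same order of groups, at 30.8, 134.7 and 90.8 FPKM. For both genes the HMPOS parental cells had the highest level of the 3 groups, and with exchanged column names it would be the extravasation-positive cells, since the HMPOS groups would trade places in each such order.

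ALDOC and ANGPTL4 were lowest in HMPOS parental cells. ALDOC stood at 180.8 FPKM in POS parental, 113.3 FPKM in HMPOS parental and 190.2 FPKM in HMPOS extravasation-positive cells, and ANGPTL4 at 2.73, 0.771 and 2.73 FPKM. CA9 increased from POS parental (27.9 FPKM) through HMPOS parental (47.5 FPKM) to HMPOS extravasation-positive cells (83.5 FPKM), and STC2 kept this order. ADM and EGLN1 ran in the opposite order, with EGLN1 at 58.0, 38.8 and 26.2 FPKM.

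**Figure D5:**
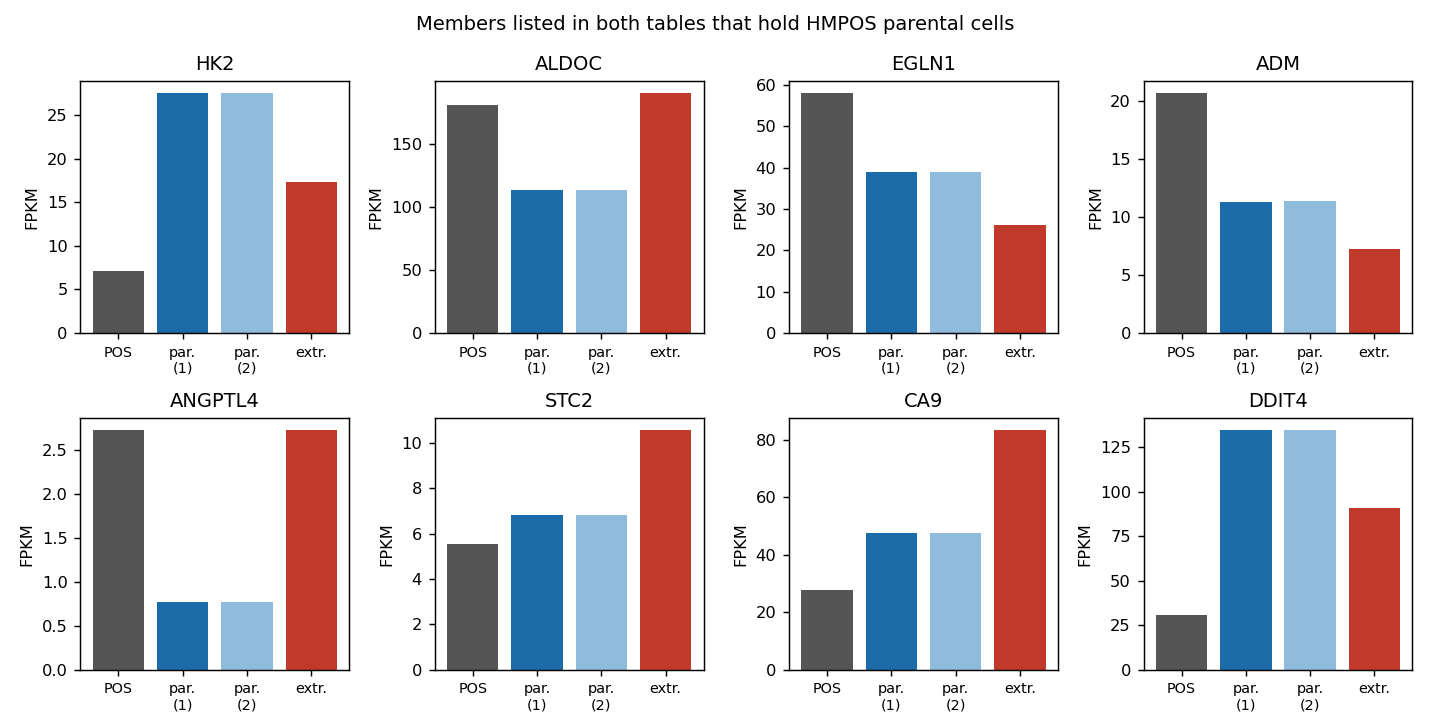
FPKM of the 8 members listed in both tables that hold HMPOS parental cells, with POS parental cells in grey, HMPOS parental cells in dark blue (value of the table against POS) and light blue (value of the HMPOS table), and HMPOS extravasation-positive cells in red. The blue bars differ by at most 0.107%, and HK2 and DDIT4 peak in HMPOS parental cells while ALDOC and ANGPTL4 are lowest there.

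Beyond the members, 55 other genes of glucose transport, glycogen, pyruvate entry and the hypoxia response were counted. In D17, 22 were listed, 16 higher and 6 lower in extravasation-positive cells, with 5 higher and 0 lower at a fold above 2 and a median log2 ratio of 0.64. These are 72.7% higher, and 22.7% higher at a fold above 2, beside 54.2% and 18.3% of all listed genes. In HMPOS, 13 were listed, 10 higher and 3 lower, none past a fold of 2, with a median of 0.51 beside 0.58 over all listed genes. The share higher was 76.9%, beside 67.0% of all listed genes, of which 20.5% were higher at a fold above 2. Between HMPOS parental and POS parental cells, 29 were listed, 19 higher and 10 lower, with 5 higher and 3 lower at a fold above 2 and a median of 0.43. These are 65.5% higher, and 17.2% higher and 10.3% lower at a fold above 2, beside 47.7%, 8.49% and 19.1% of all listed genes.

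In D17 the highest ratio of these belonged to TXNIP, a brake on glucose uptake, at 150.0 FPKM in extravasation-positive and 24.7 FPKM in parental cells, a fold of 6.08. PPP1R3B, which directs a phosphatase to glycogen, followed at 2.64 and 0.985 FPKM. The lowest were TIGAR, a phosphatase that opposes glycolysis, at 54.1 and 104.1 FPKM, and the glucose transporter SLC2A1 at 12.6 and 20.7 FPKM.

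In HMPOS the highest was PCK2, the mitochondrial carboxykinase that makes phosphoenolpyruvate, at 66.1 FPKM in extravasation-positive and 38.4 FPKM in parental cells. The lowest were SLC2A1, at 25.0 and 38.0 FPKM, and the endoplasmic reticulum oxidase ERO1A, at 53.8 and 75.3 FPKM. SLC2A1 was therefore lower in extravasation-positive cells of both lines, with log2 ratios of -0.71 in D17 and -0.60 in HMPOS. Others of these genes were higher in extravasation-positive cells of both lines, among them P4HA2, PLOD1, TXNIP, ENO3 and PPP1R3B. SLC2A3, another glucose transporter, was higher in D17, at 21.8 FPKM in extravasation-positive and 13.7 FPKM in parental cells. SLC2A1 stood higher in HMPOS parental than in POS parental cells, at 38.0 and 19.1 FPKM.

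Between HMPOS parental and POS parental cells the highest were TKTL1, a relative of transketolase, at 6.81 and 0.914 FPKM, and the lactate exporter SLC16A3 at 10.7 and 3.47 FPKM. The lowest was CITED2, which competes with the hypoxia-inducible factor for its coactivators, at 5.27 and 17.3 FPKM.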

How the data were processed

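Poly(A) RNA of 15 libraries was sequenced. The submitters' processing notes name Trimmomatic 0.38, TopHat2, Cufflinks and Cuffdiff with the dog build CanFam3.1, while the study's methods name STAR, voom and limma for the authors' processing, and the sources also name different RNA and library kits. The authors deposited 3 tables with Cuffdiff columns, which give FPKM for each group and list only genes marked significant. The tables also hold the authors' log2 ratio (second group over first), test statistic, p-value and q-value, which were neither used nor compared. Unmatched columns of single samples numbered 0.

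Ratios were recomputed from the group FPKM with no pseudocount. Called means listed with a fold above 2. Members were matched by exact gene symbol. Named were every member past a fold of 2 in at least 1 table, every member in 2 or 3 tables, an example per role, and the 2 highest and 2 lowest of the other pathway genes per table; further genes were named after their values were seen. The result for 1 of the other pathway genes is not reported here. Coordinates are as in the tables, which do not state whether starts count from 0. The members and lists were chosen with earlier results of these data known. Alternatives were a fold of 1.5 or any fold, pseudocounts of 0.1 and 1, a minimum of 1 FPKM in the higher group, matching of joined symbols, and ratios relative to the median of all listed genes. Code was tested on simulated data. Python 3.11.15, numpy 2.4.6, pandas 2.3.3 and matplotlib 3.10.9 were used.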

Additional observations from a re-analysis of the deposited data

Results flagged for a closer look

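In 3 members the pooled values of D17 and HMPOS moved in opposite directions between parental and extravasation-positive cells, and for none of them was the difference between the lines tested. The log2 ratio in D17 minus that in HMPOS was 3.95 for DDIT4, which was higher in D17 and lower in HMPOS extravasation-positive cells. For ADM the difference was 2.16, again with the higher ratio in D17, where both group values were below 1 FPKM. With a pseudocount of 1 the ADM log2 ratios were closer, at 0.40 in D17 and -0.59 in HMPOS. For ANGPTL4 the difference was -2.28, with the higher ratio in HMPOS. With that pseudocount the ANGPTL4 log2 ratios were -0.36 in D17 and 1.07 in HMPOS.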

How the results depend on the processing

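No paired analysis was possible because each table holds 1 value per group, so leaving out a library was not possible either. At a fold above 1.5 in place of 2, higher and lower members numbered 11 and 0 in D17, 5 and 3 in HMPOS, and 12 and 5 in HMPOS parental against POS parental cells. Of all listed genes, 38.2%, 35.5% and 42.1% in the same order lay within a fold of 1.5, so most passed it in some direction. Those past it were not counted by direction, so the member counts at this fold cannot be called particular to the members. At any fold, higher and lower members numbered 14 and 6, 7 and 5, and 19 and 8. Relative to the median of all listed genes, 5 members were lower at a fold above 2 in HMPOS and 12 higher in HMPOS parental against POS parental cells, and the members' medians were 0.37 in D17, -0.13 in HMPOS (reversed) and 0.77. Over all listed genes, those lower at that fold went from 57 to at least 257 in HMPOS. Those higher went from 488 to at least 892 in HMPOS parental against POS parental cells. Single log2 ratios that reversed were PFKM in D17 (-0.085), PFKL (-0.14) and PFKFB3 (-0.13) in HMPOS, and MXI1 (0.040) and TKT (0.058) in HMPOS parental against POS parental cells, whose ratios were all smaller than the shift. A pseudocount of 1 moved the D17 median to 0.53. Of 59 single ratios, 5 moved by 0.1 or more with a pseudocount of 0.1 and 13 with a pseudocount of 1, and none of these changed sign. Requiring 1 FPKM in the higher group kept every count within 1.5 times its value, as did either pseudocount, and matching of joined symbols changed no count. Depth is unknown, so the precision of values below 1 FPKM cannot be given.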

Other observations

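The pyruvate dehydrogenase complex, which turns pyruvate into acetyl-CoA, was looked at after its values had been seen. In D17 the subunits DLD, at 84.2 FPKM in extravasation-positive and 106.5 FPKM in parental cells, and DLAT, at 50.0 and 66.0 FPKM, were lower. The inhibiting kinases PDK2 and PDK4 were higher in D17, PDK4 at only 2.45 and 1.30 FPKM. Of all genes listed in D17, 54.2% were higher and 45.8% lower, and these genes were not tested as a set. In HMPOS parental against POS parental cells, DLD stood at 123.9 and 79.2 FPKM, DLAT at 36.9 and 27.1 FPKM and PDHA1 at 101.7 and 76.2 FPKM. PDP1, the phosphatase that switches the complex on, stood at 26.2 and 15.0 FPKM there. These 4 genes were higher in HMPOS parental cells, as was the kinase PDK3, at 62.9 and 52.7 FPKM, while PDK2 and PDK4 were lower. MPC2, another gene of pyruvate entry, was also lower, at 154.0 and 199.8 FPKM. Of all listed genes 47.7% were higher there. Subunits that no table lists have no value here.

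Some of the genes lie near each other, which was also noticed after their values had been seen. ENO2 and GAPDH lie within 356 kb of chromosome 27, and in D17 ENO2 was higher and GAPDH lower in extravasation-positive cells. TPI1 and GAPDH, within 318 kb of the same chromosome, were both higher in HMPOS parental than in POS parental cells. DDIT4, P4HA1 and FUT11 lie within 1296 kb of chromosome 4 and were all higher in D17 extravasation-positive cells, as were 54.2% of all genes listed there. P4HA1, a collagen prolyl hydroxylase subunit, stood at 222.2 FPKM in D17 extravasation-positive and 153.9 FPKM in D17 parental cells. Other listed genes within these stretches were not counted.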
